A study of Mus musculus with 6 samples.

Results

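The 10 genes studied here belong to the neuronal cytoskeleton and were followed through the AGO2 target peaks of mouse cortex at postnatal day 14. They encode microtubule-associated proteins (Map1a, Map1b, Map2 and Mapt), regulators of microtubule assembly (Dclk1, Dpysl2 and Stmn2), and the ankyrin and plakin scaffolds that tie membrane and filaments together (Ank2, Ank3 and Dst). A peak was credited to a gene when its midpoint lay in the gene span on mm10, and the 10 genes held 38 of the 2197 deposited peaks. VGLUT2-Cre switched on a conditional Spy3-AGO2 allele in the mice, so the tag is borne by AGO2 in cells in which that driver was active, and the labels name pyramidal neurons as the cell type. All 6 libraries share that genotype and age and form 3 groups of 2, namely AGO2-bound target RNA, AGO2-bound miRNA and input from whole lysate. The pull-down used a SpyCatcher3 resin that couples to the tag on AGO2. The peaks form 1 list for the series with no level per library, so their numbers, widths and positions carry no replicate error and no test, and neither RNA abundance nor binding strength is measured by them. The sources used here do not state whether peaks were called against the input, so listing alone does not establish that AGO2 bound there.

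Argonaute 2 carries a microRNA (miRNA) whose seed, bases 2 to 8, pairs with a short match in a messenger RNA. Most such matches that repress an mRNA lie in its 3′ untranslated region, the stretch after the coding sequence. In neurons, microtubules form the core of axons and dendrites, and microtubule-associated proteins set their stability and spacing, while ankyrins fix ion channels and adhesion molecules to the spectrin network at places such as the axon initial segment. A pair of miRNAs is known from earlier work to act on these genes, miR-9-5p on Map1b and miR-132-3p on Mapt. Their mature sequences (RefSeq, GRCm38.p6) are shown with the seed in capitals, because these are the bases that would have to match a target.
miR-9-5p: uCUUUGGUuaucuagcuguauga
miR-132-3p: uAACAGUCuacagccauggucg
In the 2 AGO2-bound miRNA libraries miR-9-5p had 4424 and 4714 counts, a share of 6.42% ± 0.273, and miR-132-3p had 954 and 1141 counts, a share of 1.47% ± 0.0574 (SD, n = 2 each). The first is encoded by Mir9-1 (chromosome 3, 88215613 to 88215635), Mir9-2 (chromosome 13, 83738821 to 83738843) and Mir9-3 (chromosome 7, 79505279 to 79505301), which give the same mature sequence, and the second by Mir132 (chromosome 11, 75173723 to 75173744), all on the plus strand. They ranked 3 and 12 among 1978 listed miRNAs. The libraries held 66854 and 75658 counts in all. Whether a peak holds a match to either seed was not analysed here, so no peak is assigned to a miRNA.

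Of the 10 genes, 9 carried at least 1 peak, against 4.30% of the 21887 nuclear protein-coding genes. Peaks were found more often in long genes, and among the 9527 protein-coding genes with a span in the members' range of 21.2 to 579 kb the share with a peak was 6.84%. The genes were chosen with these peaks known, so the count describes the choice and is not evidence about cytoskeletal genes. Ank2, Dclk1 and Map1b had 7 peaks each, Dpysl2 had 6, Stmn2 had 4, Map2 had 3, Map1a had 2, and Ank3 and Dst had 1 each. Mapt had 0. The 3 genes with 7 peaks belong to the 0.151% of protein-coding genes with at least 7, and 0.206% had at least 6, as Dpysl2 had, while the 1 peak of Ank3 or Dst is what most genes with a peak have. With at least 2 peaks required, 7 of the 10 genes remained, against 1.36% of protein-coding genes.

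**Figure D1:**
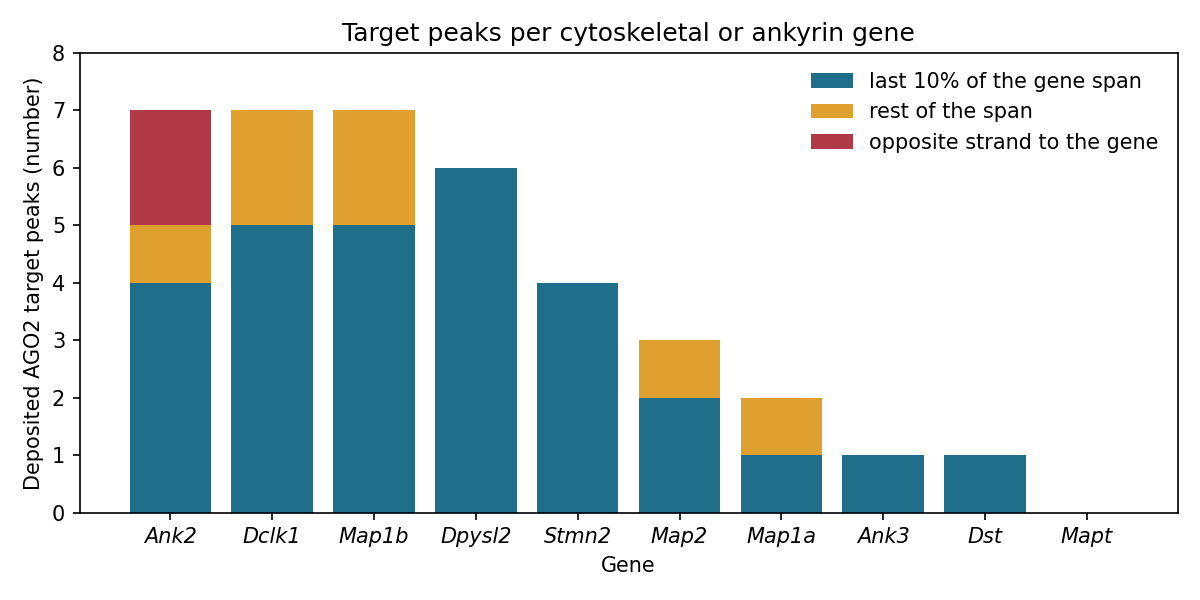
Number of deposited AGO2 target peaks in each gene (y axis, whole numbers), split into peaks in the last 10% of the gene span (blue), peaks in the rest of the span (yellow) and peaks on the strand opposite to the gene (red). The 5 genes with the most peaks hold 31 of the 38, and Mapt holds 0.

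Among the structural microtubule-associated proteins, Map1b had the richest pattern. MAP1B is the form of this family that is most prominent in growing axons. Its span lies on the minus strand of chromosome 13 (99421464 to 99516602, 95.1 kb), and all 7 peaks were on that strand. A group of 4 peaks lay next to each other between 2.62 and 3.24 kb from the 3′ end of the span, 247, 44, 89 and 156 nt wide. The shortest distance between neighbours in this group was 22 bases. The 247 nt peak (chromosome 13, 99423958 to 99424204) was the widest of all 38. Of the 1685 credits of peaks to other protein-coding genes, 4 were for peaks at least as wide. A further peak of 82 nt (chromosome 13, 99421489 to 99421570) had its midpoint 65.5 bases from the end of the span. The remaining Map1b peaks lay farther inside the gene, a 129 nt peak at 13.0 kb (chromosome 13, 99434407 to 99434535) and a 26 nt peak at 58.3 kb from the end. Map1b thus held both the widest peak and the narrowest peak on the coding strand of any of these genes.

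Map1a, whose product is the related protein of mature dendrites, had 2 peaks of similar width at well separated places. Its span is the shortest here (chromosome 2, plus strand, 121289590 to 121310832, 21.2 kb). A 78 nt peak (chromosome 2, 121309347 to 121309424) lay 1.45 kb from the 3′ end. The other, 68 nt wide (chromosome 2, 121300583 to 121300650), lay 10.2 kb from the end, 48.1% of the way up the span. Exons were not available from the table used, so whether that peak is in coding sequence was not analysed here.

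Map2, the classical marker of dendrites, had 3 peaks over a span of 267 kb on the plus strand of chromosome 1 (66175202 to 66442583). The peak nearest the end, 101 nt wide (66442479 to 66442579), had its midpoint 54.0 bases from the end of the span, closer than any other of the 38. A 74 nt peak (66439765 to 66439838) lay 2.78 kb from the end, and a 93 nt peak (66415410 to 66415502) lay 27.1 kb from it. The last of these fell just outside the last 10% of the span, at 10.1%. Mapt, the gene of the axonal protein tau (chromosome 11, 104229409 to 104332090, 103 kb), had no listed peak in its span and none within 10 kb on either side. How peaks were selected for the list is not stated, so the 0 gives no upper limit for AGO2 on Mapt.

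The 3 regulators of assembly differed in how closely their peaks were packed. Dpysl2 encodes CRMP2, a protein that binds tubulin and promotes axon growth. All 6 of its peaks, on the minus strand of chromosome 14, lay within 2034 bases between 66803127 and 66805160, at 0.344 to 2.26 kb from the end of a 108 kb span. From the end of the span inwards they were 163, 112, 126, 53, 55 and 69 nt wide, and together they covered 28.4% of that stretch. The widest Dpysl2 peaks were thus those nearest the 3′ end.

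Stmn2 encodes stathmin-2, a neuronal protein that binds tubulin and is needed for axon maintenance. Its 4 peaks, all on the plus strand of chromosome 3, lay within 1260 bases between 8560339 and 8561598 and covered 35.7% of them. In a fixed window, the last 4 kb of the span, Stmn2 peaks covered 11.3% of the bases, below the 15.5% of Map1b and the 14.5% of Dpysl2. Counted along the strand, they were 93, 36, 115 and 206 nt wide. The widest, 206 nt (8561393 to 8561598), had its midpoint 109 bases from the end of the span. The distance of the whole group from the end ranged from 0.109 to 1.22 kb, in a span of 52.1 kb.

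Dclk1 encodes a doublecortin-like kinase that binds microtubules in growing neurons. It had 7 peaks, all on its own plus strand of chromosome 3 (span 55242303 to 55539068, 297 kb), in a looser arrangement. A group of 3 peaks, 106, 69 and 70 nt wide, lay at 3.23, 2.83 and 2.60 kb from the end. A 41 nt peak followed at 4.91 kb and a 115 nt peak at 22.1 kb (55516872 to 55516986). The remaining 2, 57 and 58 nt wide, formed a pair at 51.7 and 51.2 kb (55487308 to 55487364 and 55487853 to 55487910). The Dclk1 peak nearest the end was therefore 2.60 kb away, whereas Map1b, Ank2, Dpysl2 and Stmn2 each had a peak within 0.344 kb of theirs. RefSeq starts for Dclk1 in the table of promoters numbered 2, and all 7 peaks lay downstream of both, so either start could give a transcript that reaches them.

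**Figure D2:**
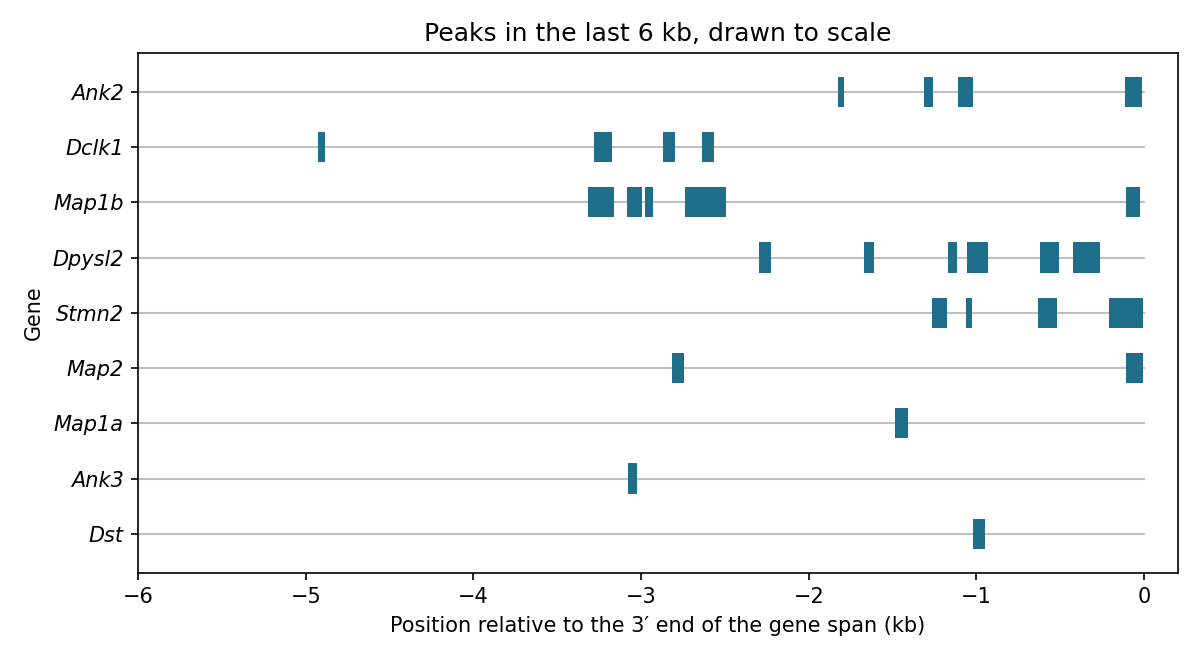
Peaks in the last 6 kb of each gene span, drawn to scale as blocks (x axis, kb from the 3′ end, at 0). Each row is a gene, read along the gene strand, or along the strand of the peak in Dpysl2, Stmn2 and Ank3. Peaks of Dpysl2 and Stmn2 all have their midpoints within 2.26 and 1.22 kb of the end, the Map1b group of 4 sits near 3 kb, and the nearest Dclk1 peaks lie 2.60 to 3.23 kb from the end.

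The ankyrins and the plakin differed in number of peaks although all 3 spans are long. Ank2 encodes ankyrin-B, which links the spectrin network to membrane proteins along axons. Its span lies on the minus strand of chromosome 3 (126921607 to 127500347, 579 kb). Of its 7 peaks, 4 lay on the coding strand within 1812 bases of each other, 103, 86, 50 and 36 nt wide at 0.063, 1.06, 1.29 and 1.81 kb from the end. A further peak on the coding strand (chromosome 3, 127056999 to 127057089, 91 nt) lay 135 kb from the end. It was downstream of 2 of the 4 RefSeq starts in the table of promoters, so transcripts from the other 2 starts do not contain it.

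The remaining 2 Ank2 peaks were on the plus strand, opposite to the gene, and were narrow. They were 24 nt (127013333 to 127013356) and 27 nt wide (127483296 to 127483322), the second 562 kb from the 3′ end of the gene, 97.1% of the way up the span. Neither midpoint lay in another annotated gene span. These were the only peaks of known opposite orientation among the 27 in the 6 members whose strand the promoter table gives (Map1a, Map1b, Map2, Ank2, Dclk1 and Dst), a share of 7.41% (exact 95% interval 0.910 to 24.3). Over all protein-coding genes with a strand given, 13.1% of peaks were antisense. In that share a peak in overlapping spans counts in each, so it can be sense in one gene and antisense in another. No member peak lay in overlapping spans, so the shares are not fully alike. Antisense peaks were narrow elsewhere too, with a median of 25.5 nt for the 2 in Ank2 and of 26 nt for the 159 in other genes. The median for sense peaks was 78 nt over 25 in the members and 61 nt over 1040 in other genes.

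Ank3, the gene of ankyrin-G, the organiser of the axon initial segment, had 1 peak of 54 nt (chromosome 10, 70024360 to 70024413), 3.05 kb from the end of a 494 kb span. Dst encodes dystonin, a large plakin that links actin, intermediate filaments and microtubules. It had 1 peak of 68 nt (chromosome 1, 34307645 to 34307712), 0.984 kb from the end of a 401 kb span. In both genes the single peak was at the 3′ end, with no listed peak in the long stretch before it.

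**Figure D3:**
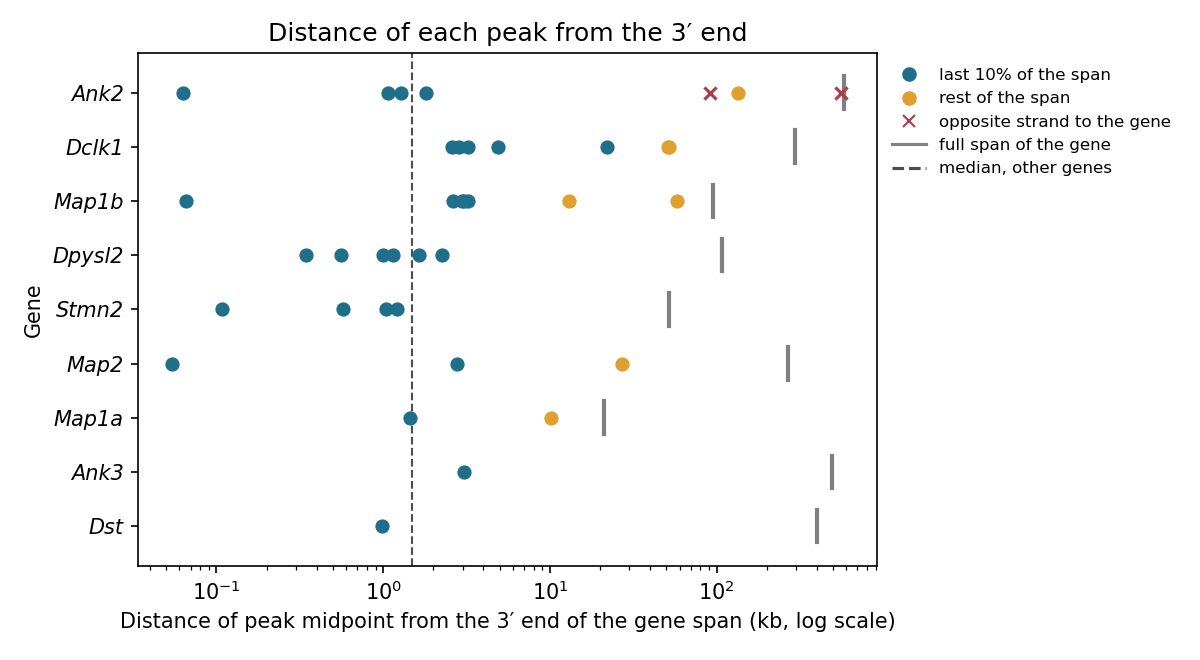
Distance of each peak midpoint from the 3′ end of the gene span (x axis, kb, log scale; each row is a gene), with peaks in the last 10% in blue, in the rest of the span in yellow and on the opposite strand as red crosses. Grey bars mark the full span and the dashed line the median of peaks in other protein-coding genes, 1.50 kb; each of the 9 genes has a peak within 3.05 kb of its end.

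Every member with a peak had at least 1 in the last 10% of its span (9 of 9), as did 66.2% of all protein-coding genes with a peak, a count that having several peaks favours. All peaks lay in the last 10% in 4 of the 9 genes (44.4%), Dpysl2, Stmn2, Ank3 and Dst, against 54.3% of the other genes with a peak and 54.2% over all. Read along the strand of the peak, 30 of the 38 peaks lay in the last 10% (78.9%, exact 95% interval 62.7 to 90.4). In other protein-coding genes 65.5% of 1685 credits did (63.2 to 67.8), where a peak in overlapping spans counts in each. Over all protein-coding genes the share was 65.8%. Read along the strand of the gene where it is given, the opposite-strand Ank2 peak near the start of that gene no longer counted, and the shares were 29 of 38 (76.3%) against 66.5%, with 66.7% over all. The intervals overlap, and they ignore that peaks within a gene share its RNA. The last 10% of the span means 2.12 kb in Map1a but 57.9 kb in Ank2. In a window of fixed length, the last 4 kb, the shares were closer, 27 of 38 (71.1%, exact 95% interval 54.1 to 84.6) against 68.5% (66.2 to 70.7) of peaks in other genes. In the last 10 kb, read along the strand of the peak, the order turned, with 28 of 38 (73.7%, exact 95% interval 56.9 to 86.6) against 78.5% (76.4 to 80.4) in other genes and 78.4% over all. Which set lay closer to the 3′ end thus depended on the window.

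The immediate end of the span held peaks in 4 genes, a boundary of 150 bases chosen after the values were seen. These were the last peaks of Map2, Ank2, Map1b and Stmn2, at 54.0, 63.0, 65.5 and 109 bases, so 4 of 38 peaks (10.5%) were that close, against 14.3% over all protein-coding genes. The median distance to the end was 2.61 kb over the 38 peaks and 1.50 kb over those of other genes, both read along the gene strand. On the coding strand, or with the strand not given, 7 peaks in 5 genes lay outside the last 10%, in Map1b, Dclk1, Map2, Map1a and Ank2.

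Spacing was compared with that in other genes with many peaks. For each gene with at least 4 peaks, the shortest distance spanned by 4 neighbouring midpoints was taken. It was 623 bases in Map1b, 796 in Dpysl2, 1111 in Stmn2, 1743 in Ank2 and 2307 in Dclk1. The median was 1111 bases over these 5 genes and 1076 over 85 other protein-coding genes. Map1b was the most compact of the 5, and 26 of the 85 other genes had a window at least as short.

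The members' peaks were wider at the median, but the interval of that median reached the value of other genes. Their median width was 76 nt (range 24 to 247, 95% interval of the median 58 to 93). Over peaks in other protein-coding genes it was 58 nt (17 to 407). At least 100 nt was reached by 12 of 38 (31.6%, exact 95% interval 17.5 to 48.7), against 21.3% (19.4 to 23.3) in other genes and 21.5% over all, so the interval holds the background share. Under 30 nt were 3 of 38 (7.89%), the 2 opposite-strand Ank2 peaks and the Map1b peak at 58.3 kb, against 16.1% over all. Within the last 10% of the span, opposite-strand peaks left out, the median was 82 nt over 29 peaks in the members and 64.5 nt over 1088 in other genes. Outside it the medians were 68 nt over 7 peaks and 54 nt over 438. In both sets the median was higher at the end of the span. Summed over all members, the 38 peaks covered 3270 bases.

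**Figure D4:**
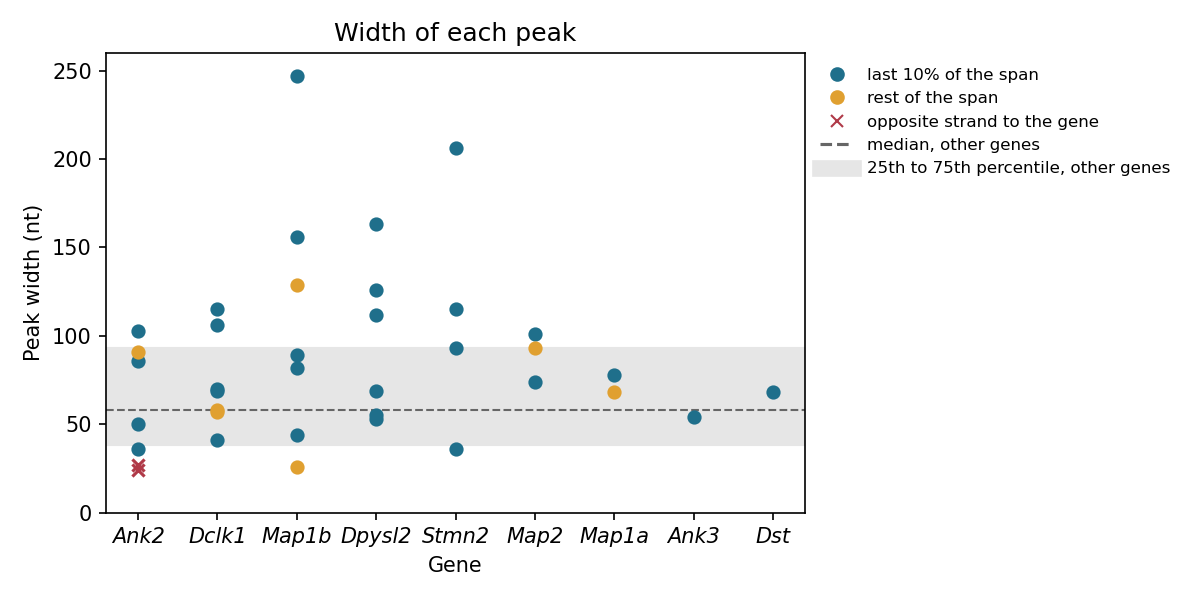
Width in nt of each peak by gene (y axis), coloured by position as in the plot of distances, with the median (dashed, 58 nt) and the 25th to 75th percentile (grey, 38 to 93 nt) of peaks in other protein-coding genes. Map1b spans 26 to 247 nt, and the opposite-strand Ank2 peaks are the narrowest points at 24 and 27 nt.

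Peaks on both strands were listed in 1 gene, Ank2. Among genes with a peak and a strand given, 1 of the 6 members (16.7%) had an antisense peak, against 20.5% of 707 other genes and 20.5% over all. The promoter table has no entry for Dpysl2, Stmn2, Ank3 and Mapt, so positions of their 11 peaks were read along the strand of the peak. All 38 peaks lay in a single gene span, whereas 13.6% of peak assignments in other protein-coding genes were in more than 1 span. None of the 10 genes had a peak outside its span within 10 kb.

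Other genes of these families were counted in the same way. Of 55 further cytoskeletal genes on lists written from general knowledge, 12 had a peak (21.8%, exact 95% interval 11.8 to 35.0), with 22 peaks in all, against 4.30% of protein-coding genes. The lists were written with earlier results of these data known. Tubulin genes, which encode the subunits of microtubules, had most of them, with peaks in 5 of 9. Tuba1a and Tubb2a had 4 each and Tubb4a had 3, in short spans of 3.66, 3.73 and 7.54 kb. Among ankyrins, spectrins and adducins, 3 of 9 further genes had a peak, among them the spectrin genes Sptbn1 with 2 and Sptan1 with 1.

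Among end-binding and other structural microtubule-associated proteins, 2 of 10 had a peak, Map7d1 and Mapre2 with 1 each. Camsap2, which caps microtubule minus ends, was the 1 gene with a peak among 7 of the severing and minus-end group, and L1cam, an adhesion molecule that binds ankyrin, the 1 of 4 ankyrin partners. No peak was listed in the other 3 members of the doublecortin family, the 4 other collapsin response mediators, the 3 other stathmins, the 2 other plakins, or the 4 neurofilament genes, which is also the case for most protein-coding genes, since 4.30% have a peak. Expression of these relatives is not given by the peak list. Of the 22 peaks, 16 (72.7%) lay in the last 10% of the span, read along the gene strand where given. Over all protein-coding genes 66.7% of peaks did, so the share is near the general one.

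Marker genes of the labelled cell type and of other cell types were counted by presence of a peak, which does not measure RNA abundance. Over all nuclear protein-coding genes 4.30% had a peak, so 0 or 1 gene in a list of 5 or 6 says little about cell type. Markers of glutamatergic neurons had a peak in 5 of 8 genes, among them Slc17a7 with 5, Camk2a with 4, and Nrgn and Tbr1 with 1 each, while Slc17a6, the gene of VGLUT2 itself, had 0. Peaks were also listed for oligodendrocyte markers in 3 of 5 genes (among them Mbp with 2 and Cnp with 1), an astrocyte marker in 1 of 6 (Slc1a2, 45) and a GABAergic marker in 1 of 6 (Sst, 1), and for 0 of 5 microglial and 0 of 5 endothelial markers. Ank2, Ank3, Dst and Dpysl2 are known to be expressed in glia as well, and the cell of origin of their peaks was not tested.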

How the data were processed

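Per the submitters' processing notes, the build was mm10 and the tools included STAR 2.5.2a, cutadapt 2.10, UMI-tools and Bowtie2 2.4.2, with no roles named; for the peak caller and its threshold, the sources used here give nothing. The authors deposited 1 peak list with a score of 0 for all 2197 peaks, and counts per mature miRNA whose name says that duplicates were not removed. Libraries were cut from gels at 70 to 150 kDa, per the labels.

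Peaks (15 to 407 nt, median 53) were credited by midpoint to spans of RefSeq GRCm38.p6, the assembly of mm10, except peaks in small RNA genes. In all, 1624 peaks gave 1723 credits to nuclear protein-coding genes. A peak in overlapping spans is counted in each gene. Numbers of peaks in other genes, or over all genes, are therefore credits, and their intervals treat credits as separate. Gene strand came from the RefSeq promoter table. Coordinates count from 1. Intervals of shares are exact (Clopper-Pearson) 95%, and that of the median width comes from binomial ranks. They cover counting only. All 10 members matched. Crediting was run on simulated peaks placed by the same distance rule along the peak strand. That run checks the code only, not the annotation or the reading along the gene strand. The miRNA share is count over library total; a row for unassigned reads held 0. The labels do not say that replicates are separate animals. Members and lists were chosen with earlier results of these data known. Some genes that the naming rule covers are not reported here. Named are all members, up to 3 other genes per list with a peak, and the miRNAs miR-9-5p and miR-132-3p. Python 3.11.15, pandas 2.3.3 and scipy 1.17.1 were used.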

Additional observations from a re-analysis of the deposited data

How the results depend on the processing

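Crediting peaks by any overlap or only if wholly inside the span, and keeping only peaks in 1 gene span, left all 38 peaks in place. With peaks of at least 30 nt, 35 remained and the share in the last 10% was 82.9%; with peaks within 50 nt merged there were 37 and 78.4%. Over all alternatives that share ran from 73.7% (last 5% of the span, and also last 10 kb) to 89.5% (last 20%), the median width from 76 to 82 nt and the median distance from 2.26 to 2.61 kb. Reading along the gene strand, leaving out opposite-strand peaks (80.6%) and leaving out Ank2 (31 peaks, 80.6%) were chosen after seeing the data. Except for the last 10 kb and the reading along the gene strand, these alternatives were computed for the members only. Shares over all protein-coding genes under the same settings are lacking, so these values measure no difference from other genes. Without miR-128-3p in the denominator the share was 7.40% for miR-9-5p and 1.69% for miR-132-3p; leaving out a library gave 6.23 to 6.62% and 1.43 to 1.51%. No paired analysis was possible because the peaks are 1 list and the miRNA counts are 1 group, so no result comes from a test. The planned search for seed matches in peaks was not run, since no genome sequence was used here. Without counts per peak, depth cannot be weighed for any gene.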

Other observations

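The peak names carry numbers that run in order of chromosome, strand and position up to 14469, of which 2197 (15.2%) are listed. What the skipped numbers stood for is not given in the sources used here. If the skipped numbers follow position as the listed ones do, those between the first and last listed peak of a gene on a strand fall inside that stretch. Their positions are not given, so that was not tested. In Map1b the 7 listed peaks run over 63 consecutive numbers, so 56 were skipped, and in Map1a 2 listed peaks run over 34 numbers. Dclk1 lists 7 of 26, the coding strand of Ank2 5 of 30, Map2 3 of 24, Dpysl2 6 of 14 and Stmn2 4 of 11. The opposite-strand Ank2 peaks carry adjacent numbers, 2371 and 2372, although they lie far apart in the gene. With the end peaks of each run left out, 10.6% of the numbers within the members' runs were listed, against 21.9% within runs of other protein-coding genes. The members had only 8 runs, and Map1b held 61 and Map1a 32 of the numbers between ends. A run with 2 listed peaks, as in Map1a, has none listed between its ends, so the members' share rests on few genes.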
